A study of Mus musculus with 10 samples.

Results

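The 33 genes described here encode the proteins that copy DNA and that control the step from G1 into S phase of the cell cycle. They were listed by function, with earlier results of these data known. Each gene was represented by its brightest probe set, averaged over the 10 arrays, among those assigned to no other gene. All 33 were measured, among 18193 genes in all, and no filter on low values was applied. The transcripts were measured in primary mouse keratinocytes, which form the epidermis, after a culture of 3 to 4 days with calcium at 0.05 mM and fetal calf serum at 8%. Of the 10 samples, 5 came from mice labelled Sgpp1+/+ (WT 1 to WT 5) and 5 from mice labelled Sgpp1-/- (KO 8, KO 9, KO 10, KO 21 and KO 23). Sgpp1 encodes sphingosine-1-phosphate phosphatase 1, and the labels state neither how the gene was disrupted, nor the strain, the age or the sex of the mice, nor whether the samples came from separate animals, so the p-values reflect the spread among these samples only, which may be technical. Each sample was hybridised to 1 Affymetrix mouse genome array. The sample titles also hold a running number, which is lower for every WT array than for every KO array. What it counts is not stated, and group and this number cannot be told apart. All levels below are log2 values, on which a difference of 1 is a 2-fold change.

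Before DNA can be copied, each origin of replication is licensed in G1. The origin recognition complex, of which Orc1 is a subunit, recruits Cdc6 and Cdt1, which load the ring of Mcm2 to Mcm7, the core of the replicative helicase, and geminin (Gmnn) blocks Cdt1 once S phase has begun. Cdc45 and the GINS complex then join the ring and switch the helicase on, and DNA polymerases, their clamp and its loader carry out synthesis. Most of these genes are transcribed in late G1 under E2F transcription factors, which the retinoblastoma protein family holds in check until cyclin-dependent kinases release them. In the epidermis DNA replication is a feature of the basal layer, and cultures of mouse keratinocytes keep proliferating when calcium is low.

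The labelled cell type was borne out by its markers: Krt5 read 12.78 ± 0.06 in WT and 12.73 ± 0.10 in KO (mean ± SD, n = 5 each), and all 8 markers of basal keratinocytes read above the level of Y-linked genes on the 6 arrays that lack Y-linked signal (2.08 to 3.84), used here as a guide to background. Of these 8, 0 were called, and 7 had a positive and 1, Krt5, a negative KO minus WT difference, with a median of 0.17 and a summed level (log2 of the summed linear values) of 14.31 to 14.43 in WT and 14.33 to 14.59 in KO. All 330 values of the replication and G1/S genes lay above that range, the lowest being 3.94. The targeted gene did not bear out the labels. Its 3 probe sets, with KO minus WT differences of 1.24, 1.15 and 0.51, all read higher on every KO array than on every WT array, and whether they lie in the disrupted part is unknown. Sgpp1 was not called, with a limma adjusted p of 0.102 over all genes. WT and KO therefore stand throughout for arrays labelled so. WT 1 stood farthest from the other arrays, with a mean correlation of 0.955 over all probe sets.

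No replication or G1/S gene passed the test between KO and WT, yet nearly all of them differed in the same direction. Of the 33 genes, 0 were called lower and 0 higher by limma with Benjamini-Hochberg adjustment over all 18193 genes at a threshold of 0.05, where 0.346% of all genes were called lower in KO, 2.3% higher and 2.65% in either direction. At an unadjusted limma p under 0.05 there were 12 with a negative difference and 0 with a positive one, beside 5.65% and 7.33% of all genes. The KO minus WT difference was below 0 in 32 of the 33, with a median of -0.44 and a range of -0.72 to 0.11, while over all genes tested the median was -0.01 and 52.4% of differences were below 0. The genes of a list were read on the same arrays and can vary together. Here and for the lists below, the number of genes with the same sign is therefore not a number of independent results. None of the 33 differed by 2-fold. The smallest adjusted p was 0.13. In 1 of the 33, Pole, the KO arrays did not overlap the WT arrays, against 4.38% of all genes in either direction, 1.02% with KO below WT and 3.36% with KO above.

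The number of genes at an unadjusted p under 0.05 with a negative difference depended on single arrays. Leaving out WT 2, WT 5, KO 9 or KO 10 gave 5 in each case and leaving out KO 21 gave 4, whereas each of the other arrays, left out, gave 8 to 17. The share of all genes at this unadjusted p was not counted for these fits. Calls over all genes moved too, from 0.0715% called lower without KO 9 to 0.588% without KO 23. The median difference of the 33 genes ran from -0.53 to -0.33. Without WT 3, 1 gene was called, Uhrf1 at -0.84 (limma adjusted p = 0.0446), beside 0.341% of all genes called lower. With array quality weights estimated by limma, which gave WT 1 a weight of 0.23 and WT 4 one of 2.46, 7 of the 33 were called lower, but so were 3.08% of all genes. The 7 were Mcm6, Pola1, Pole, Lig1, Rrm1, Rrm2 and Chek1. With the mean of 7 fibroblast markers as a covariate, a choice made after seeing the data, 1 was called, again Uhrf1, at -0.78 (limma adjusted p = 0.0332), beside 0.594% of all genes called lower.

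The spread lay within both groups. Averaged over the 33 genes and given relative to the 10-array mean of each gene, the level was 0.00, 0.30, -0.13, 0.19 and 0.62 on WT 1 to WT 5 and 0.11, -0.39, -0.37, -0.43 and 0.09 on KO 8, KO 9, KO 10, KO 21 and KO 23. KO 8 and KO 23 thus lay inside the WT range of -0.13 to 0.62, and KO 9, KO 10 and KO 21 below it. Within KO, KO 9, KO 10 and KO 21 all read below both KO 8 and KO 23 in 25 of the 33 genes. WT 5 was the highest of the 10 arrays in 23 of the 33, and KO 21 the lowest in 12. WT 3 was the lowest WT array in 15 genes and WT 1 in 12. Below every WT array lay KO 21 in 22 genes, KO 10 in 22 and KO 9 in 18, but KO 8 in 6 and KO 23 in 4. This division of the KO arrays was read from the values, carries no label, and was not tested. The counts per array were not made over all genes, so they do not show that the division is particular to these genes.

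**Figure D1:**
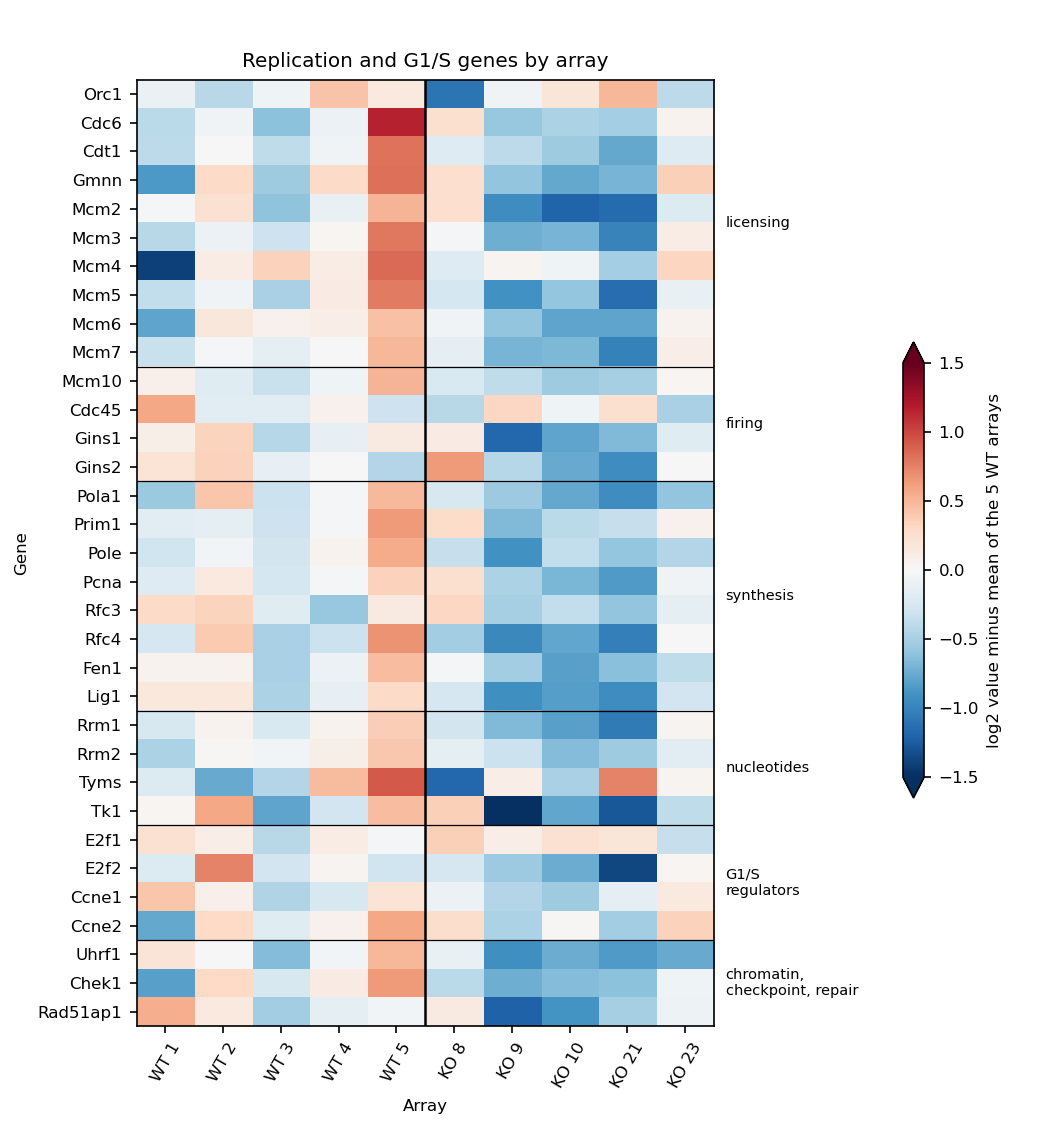
Heat map of the 33 replication and G1/S genes (rows, grouped by role) on the 10 arrays (columns), coloured by the log2 value minus the mean of the 5 WT arrays. KO 9, KO 10 and KO 21 are blue in most rows, KO 8 and KO 23 are mixed, and WT 5 is red in most rows, being the highest array in 23 of 33 genes.

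Promoter sequences are shown because most of these genes are known targets of E2F factors. Whether these factors have a part in the differences was not tested. The RefSeq table of promoters (GRCm38.p6, 250 bases before and 50 after each annotated start) holds 33 windows for 27 of the 33 genes. Each line below gives the 160 bases before the first listed start, 5′ to 3′ on the strand of the gene. Shown are those of the 4 genes with the smallest limma p and the first of each remaining role that the table holds and whose window lies in no other gene, which leaves out Lig1 and Pole. Capitals mark matches, on either strand, to the E2F motif forms TTTGGCGC, TTTCCCGC, TTTGCCGC and TTTCGCGC, to the 7-letter forms left when their first T is dropped, and to the CCAAT box, and no other letters are marked.
Uhrf1, chr17:56303177-56303336, plus strand: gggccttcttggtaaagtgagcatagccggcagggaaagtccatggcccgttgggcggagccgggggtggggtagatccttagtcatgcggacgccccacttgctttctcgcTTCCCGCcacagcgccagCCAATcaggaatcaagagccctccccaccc
Pola1, chrX:93632156-93632315, minus strand: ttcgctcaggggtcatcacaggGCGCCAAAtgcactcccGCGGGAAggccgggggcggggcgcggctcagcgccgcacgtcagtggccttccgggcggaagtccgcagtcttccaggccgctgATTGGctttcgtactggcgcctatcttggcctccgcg
Mcm5, chr8:75109349-75109508, plus strand: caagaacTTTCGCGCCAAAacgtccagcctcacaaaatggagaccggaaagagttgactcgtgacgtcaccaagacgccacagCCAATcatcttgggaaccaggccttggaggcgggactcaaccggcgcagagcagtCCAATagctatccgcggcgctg
Mcm10, chr2:5012792-5012951, minus strand: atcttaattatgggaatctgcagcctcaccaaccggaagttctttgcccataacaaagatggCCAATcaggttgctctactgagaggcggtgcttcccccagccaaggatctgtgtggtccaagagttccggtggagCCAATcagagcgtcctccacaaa
Rrm1, chr7:102441535-102441694, plus strand: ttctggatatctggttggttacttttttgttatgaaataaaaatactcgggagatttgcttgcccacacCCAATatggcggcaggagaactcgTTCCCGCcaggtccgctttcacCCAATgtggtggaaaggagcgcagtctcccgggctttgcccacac
E2f2, chr4:136172114-136172273, plus strand: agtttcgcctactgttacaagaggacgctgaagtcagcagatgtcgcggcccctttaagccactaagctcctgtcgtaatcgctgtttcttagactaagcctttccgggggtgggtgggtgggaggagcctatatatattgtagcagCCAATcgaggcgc

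Within the 160 bases shown, Mcm5 carries an E2F match on each strand that overlap each other, beginning 153 and 149 bases before the start, and CCAAT boxes nearer to the start. A further Mcm5 match begins 164 bases before the start, outside the stretch shown. In Pola1 the E2F matches within that stretch begin 138 and 121 bases before the start, with others at 169 before and 15 after it, and in Uhrf1 and Rrm1 they begin 48 and 67 bases before it. Mcm10 shows CCAAT boxes alone in this stretch. E2f2 shows a CCAAT box alone before the start, and its E2F match begins 39 bases after it. A match is a description of letters and shows no binding.

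Over whole windows, the 8-letter E2F forms occurred on either strand in 12 of the 33 windows (36.4%), against 2.26% of the 32851 windows in the table. The 7-letter forms, which include the 8-letter ones, occurred in 22 (66.7%) against 9.57%, and CCAAT in 20 (60.6%) against 37.4%. The cell cycle homology region TTTGAA, known from promoters of G2 and mitosis genes, occurred in 4 windows (12.1%), against 17.9% of all windows and 20 of 26 windows (76.9%) of the mitosis and cytokinesis genes described below. Those mitotic windows held an 8-letter E2F form in 1 of 26 (3.85%). E2F matches were also frequent in the 49 windows of the other replication genes described below. There, 26.5% held an 8-letter and 46.9% a 7-letter form. Some genes have more than 1 window, and no test was made of these shares.

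**Figure D2:**
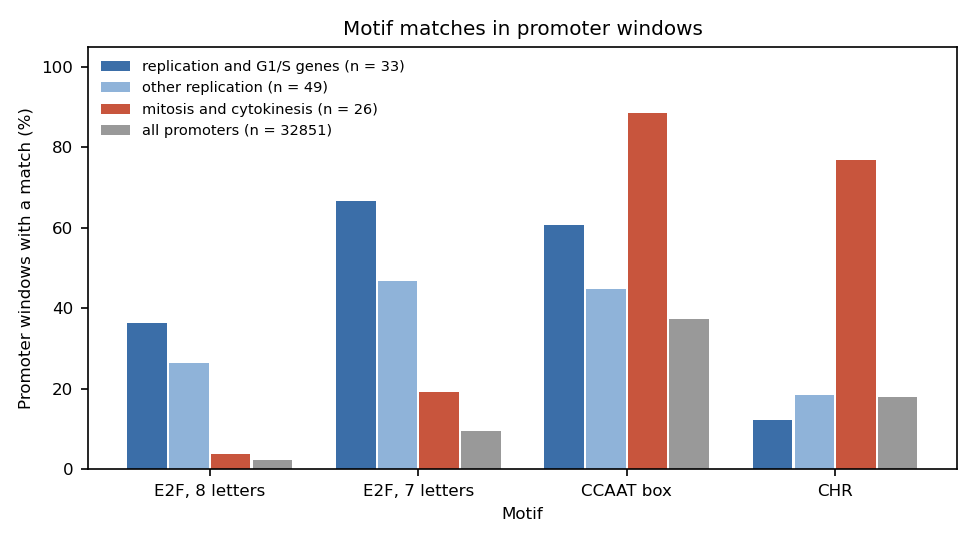
Share of promoter windows (y axis, percent) with at least 1 match on either strand to each motif (x axis) in 4 sets of windows (colours, with their number). E2F forms (8 and 7 letters) are found in 36.4% and 66.7% of windows of the replication and G1/S genes. In windows of other replication genes they are found in 26.5% and 46.9%. The cell cycle homology region (CHR) is found in 76.9% of those of mitosis genes.

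Among the 10 licensing genes, 0 were called, all 10 differences were below 0 and the median was -0.43. The 6 helicase subunit genes Mcm2 to Mcm7 had a median of -0.48, and 3 of them, Mcm2, Mcm5 and Mcm7, had an unadjusted p under 0.05. In the order of arrays given above, Mcm5 read 8.55, 8.86, 8.43, 9.04 and 9.70 in WT and 8.65, 8.01, 8.34, 7.77 and 8.81 in KO. WT 5 stood highest, KO 21 lowest, and KO 8 and KO 23 lay among the WT arrays. The difference was -0.60 (SE 0.26, limma adjusted p = 0.339). A further Mcm5 probe set, of means 8.42 in WT and 7.41 in KO, differed by -1.01 with a limma adjusted p of 0.0821 over 34945 probe sets, the smallest adjusted p among the 78 probe sets of the 33 genes.

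Mcm2 read 7.33, 7.59, 6.75, 7.24 and 7.87 in WT and 7.61, 6.43, 6.16, 6.20 and 7.15 in KO. KO 9, KO 10 and KO 21 were below all WT arrays, whereas KO 8 exceeded every WT array except WT 5. The difference was -0.64 (SE 0.29, limma adjusted p = 0.376). For Mcm7 the difference was -0.49 (SE 0.22, limma adjusted p = 0.38), for Mcm3 -0.47 (SE 0.26, limma adjusted p = 0.524) and for Mcm6 -0.44 (SE 0.24, limma adjusted p = 0.513). The 5 probe sets of Mcm3 differed by -0.47, -0.45, -0.49, -0.62 and -0.49, so that they lay close together. Mcm4 stood apart, reading 6.96, 8.47, 8.71, 8.47 and 9.21 in WT and 8.17, 8.41, 8.30, 7.85 and 8.69 in KO. WT 1, at 6.96, was the lowest array for this gene and the other 9 lay between 7.85 and 9.21, KO and WT mixed. Its difference was -0.08 (SE 0.34, limma adjusted p = 0.968) with a 95% interval of -0.81 to 0.65, which includes the differences of the other 5 subunits. That difference depended on single arrays, being -0.43 without WT 1 and 0.13 without WT 5. Its further probe set differed by -0.31.

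Of the factors that load the helicase, Cdt1 differed by -0.42 (SE 0.22, limma adjusted p = 0.485), Cdc6 by -0.26 (SE 0.30, limma adjusted p = 0.834) and Orc1 by -0.17 (SE 0.27, limma adjusted p = 0.884). Orc1 read 5.74, 5.43, 5.78, 6.27 and 5.99 in WT and 4.75, 5.79, 6.02, 6.34 and 5.45 in KO. Here the KO arrays stood in another order than for Mcm2 and Mcm5, KO 8 being the lowest of all arrays and KO 21 the highest. Gmnn, the inhibitor of Cdt1, read 6.98, 8.13, 7.30, 8.12 and 8.66 in WT and 8.09, 7.25, 7.07, 7.14 and 8.19 in KO. The KO arrays all lay within the WT range, and the difference was -0.29 (SE 0.33, limma adjusted p = 0.825).

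The 4 genes for switching on the helicase were not called either, with a median difference of -0.31. Gins1, encoding a GINS subunit, read 7.10, 7.35, 6.59, 6.89 and 7.15 in WT and 7.14, 5.84, 6.22, 6.35 and 6.84 in KO. KO 9, KO 10 and KO 21 were below all WT arrays and KO 8 and KO 23 within them, and the difference was -0.54 (SE 0.24, limma adjusted p = 0.342). Gins2, encoding another GINS subunit, differed by -0.30 (limma adjusted p = 0.755), while its further probe set differed by 0.15. Mcm10, a factor needed to activate the loaded helicase, differed by -0.32 (0.498) and Cdc45 by -0.08 (0.94). The 95% interval of Cdc45 ran from -0.54 to 0.37.

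The 8 genes of the synthesis machinery gave a median difference of -0.50, and 5 of the 12 genes with an unadjusted p under 0.05 were among them: Lig1, Pole, Pola1, Rfc4 and Fen1. Lig1 encodes the ligase that seals Okazaki fragments, the short stretches of the lagging strand. It read 8.70, 8.70, 8.06, 8.41 and 8.82 in WT and 8.29, 7.62, 7.71, 7.61 and 8.25 in KO. KO 9, KO 10 and KO 21 lay below all WT arrays, and KO 8 and KO 23 lay above WT 3 only. The difference was -0.64 (SE 0.19, limma adjusted p = 0.13), with an exact permutation p of 0.0317 (two-sided, over every assignment of the arrays to 2 groups of 5).

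Pole, encoding the catalytic subunit of the leading strand polymerase epsilon, read 6.40, 6.66, 6.43, 6.75 and 7.26 in WT and 6.36, 5.79, 6.33, 6.12 and 6.26 in KO. The highest KO array, KO 8 at 6.36, was just below the lowest WT array, WT 1 at 6.40, and this was the 1 gene of the list whose groups did not overlap. Its difference was -0.53 (SE 0.18, limma adjusted p = 0.196), and its exact permutation p of 0.00794, not adjusted for the number of genes, is the smallest that 5 against 5 arrays can give. Any gene whose groups do not overlap reaches that p, so it adds nothing to the lack of overlap. Pola1, the catalytic subunit gene of polymerase alpha, which with primase starts each new strand, read 4.50, 5.47, 4.73, 5.04 and 5.54 in WT and 4.82, 4.51, 4.29, 4.13 and 4.46 in KO. WT 1 and WT 3 lay within the KO range, the other 3 WT arrays lay above it, and the difference was -0.62 (SE 0.21, limma adjusted p = 0.197). A dimmer Pola1 probe set, of means 2.91 and 3.03 and so within the background range, differed by 0.13.

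Rfc4 and Rfc3 encode subunits of the loader that places the sliding clamp on DNA. Rfc4 read 6.97, 7.61, 6.74, 6.90 and 7.89 in WT and 6.70, 6.25, 6.44, 6.20 and 7.23 in KO. KO 23 lay within the WT range and the other 4 KO arrays below it, and the difference was -0.66 (SE 0.26, limma adjusted p = 0.267), against -0.26 (SE 0.21, limma adjusted p = 0.724) for Rfc3. Pcna, the clamp itself, read 10.37, 10.71, 10.31, 10.54 and 10.91 in WT and 10.81, 10.09, 9.88, 9.72 and 10.51 in KO. KO 8 was the second highest of all arrays after WT 5, KO 21 was the lowest, and the difference was -0.37 (SE 0.21, limma adjusted p = 0.533). Fen1, encoding the nuclease that trims Okazaki fragments, differed by -0.47 (SE 0.19, limma adjusted p = 0.3) and Prim1, encoding the primase subunit that makes the primer, by -0.21 (SE 0.22, limma adjusted p = 0.801).

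**Figure D3:**
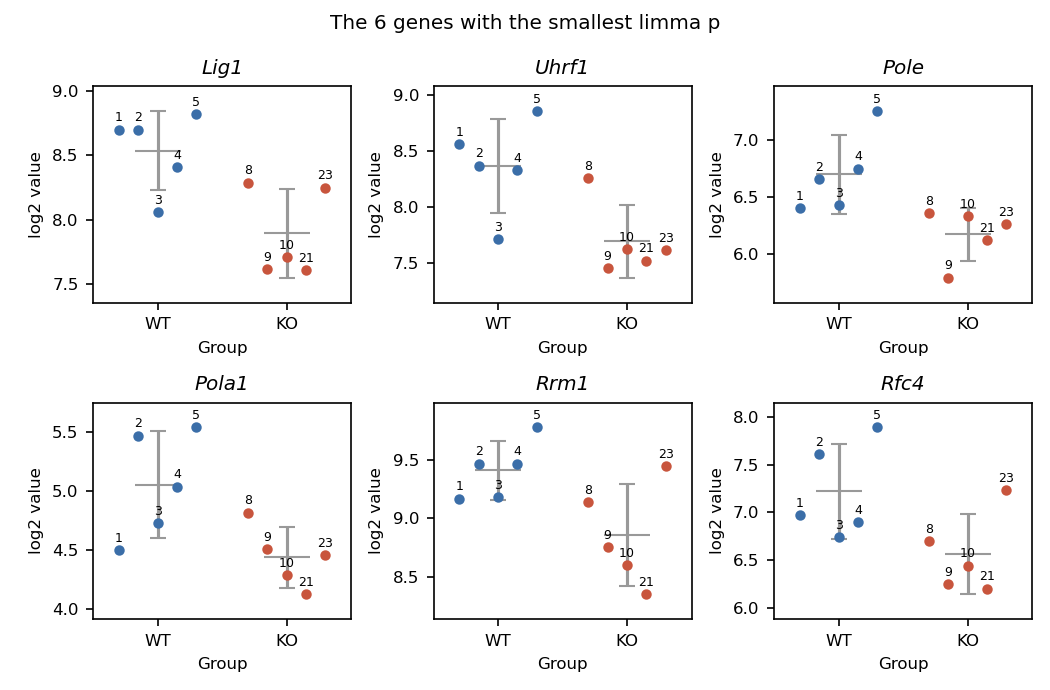
Values of the 6 genes with the smallest limma p on each array (points, numbered as in the labels; y axis, log2 value; blue WT, red KO), with the mean and SD of each group (grey). The groups overlap in every panel except that of Pole, where KO 8 at 6.36 lies just below WT 1 at 6.40.

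Enzymes that supply deoxynucleotides had a median difference of -0.46 over 4 genes, with 0 called. Rrm1 and Rrm2 encode the large and small subunits of ribonucleotide reductase. Rrm1 read 9.17, 9.47, 9.18, 9.47 and 9.78 in WT and 9.14, 8.75, 8.60, 8.35 and 9.45 in KO. KO 23 reached the WT range and the other KO arrays lay below it, with a difference of -0.55 (SE 0.21, limma adjusted p = 0.244). A second Rrm1 probe set of similar brightness differed by -0.57. Rrm2 differed by -0.36 (SE 0.17, limma adjusted p = 0.422), and its further probe sets by -0.65 and -0.52.

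Tk1, the gene of cytosolic thymidine kinase, had the most negative difference of the 33, -0.72 (SE 0.35, limma adjusted p = 0.425), and it spread widely. It read 7.38, 7.94, 6.57, 7.07 and 7.82 in WT and 7.71, 5.83, 6.58, 6.09 and 6.98 in KO. KO 8 was exceeded only by WT 2 and WT 5, while KO 9 and KO 21 were below all WT arrays, and the 95% interval ran from -1.47 to 0.04. Tyms, the gene of thymidylate synthase, read 5.67, 5.13, 5.44, 6.36 and 6.80 in WT and 4.70, 5.98, 5.39, 6.62 and 5.92 in KO. KO 8 was the lowest and WT 5 the highest array, KO 21 came second, and the difference was -0.16 (SE 0.37, limma adjusted p = 0.935).

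The regulators of entry into S phase had a median difference of -0.14 over 4 genes, with 0 called, and were not tested against the other roles. E2f1 encodes an E2F factor that activates these genes. It read 7.41, 7.28, 6.77, 7.30 and 7.17 in WT and 7.54, 7.28, 7.41, 7.37 and 6.84 in KO. The groups overlapped over most of their range, and with 0.11 (SE 0.17, limma adjusted p = 0.89) it was the 1 gene of the 33 with a positive difference. Its 95% interval was -0.26 to 0.47, and its further probe sets, both dimmer, differed by -0.27 and -0.28. E2f2, a second activating E2F gene, read 7.95 on WT 2 and 6.91 to 7.25 on the other WT arrays, and 6.95, 6.66, 6.46, 5.84 and 7.23 on the KO arrays. WT 2 was highest and KO 21 lowest, with KO 8 and KO 23 inside the WT range, and the difference was -0.58 (SE 0.27, limma adjusted p = 0.381). Its further probe set differed by -0.54.

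Ccne1 and Ccne2 encode the E-type cyclins that activate Cdk2 at the start of S phase. Ccne2 differed by -0.07 (limma adjusted p = 0.958) with a 95% interval of -0.63 to 0.48. For Ccne1 the value depended on the probe set: the one that stood for the gene, of means 6.96 and 6.75, differed by -0.21, and another of means 7.24 and 6.44 differed by -0.80 with a limma adjusted p of 0.249 over all probe sets.

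Uhrf1 encodes a protein that brings the maintenance DNA methyltransferase to newly copied DNA. It read 8.56, 8.37, 7.71, 8.33 and 8.86 in WT and 8.26, 7.45, 7.62, 7.52 and 7.61 in KO. Of the KO arrays, KO 8 alone exceeded the lowest WT array, WT 3, and the difference was -0.67 (SE 0.22, limma adjusted p = 0.157). Its second probe set differed by -0.39. Chek1, encoding the checkpoint kinase that restrains the cycle when replication stalls, read 5.77, 6.88, 6.35, 6.71 and 7.22 in WT and 6.18, 5.85, 5.94, 5.97 and 6.52 in KO. All KO arrays lay below the WT mean and none below WT 1, with a difference of -0.49 (SE 0.24, limma adjusted p = 0.437).

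**Figure D4:**
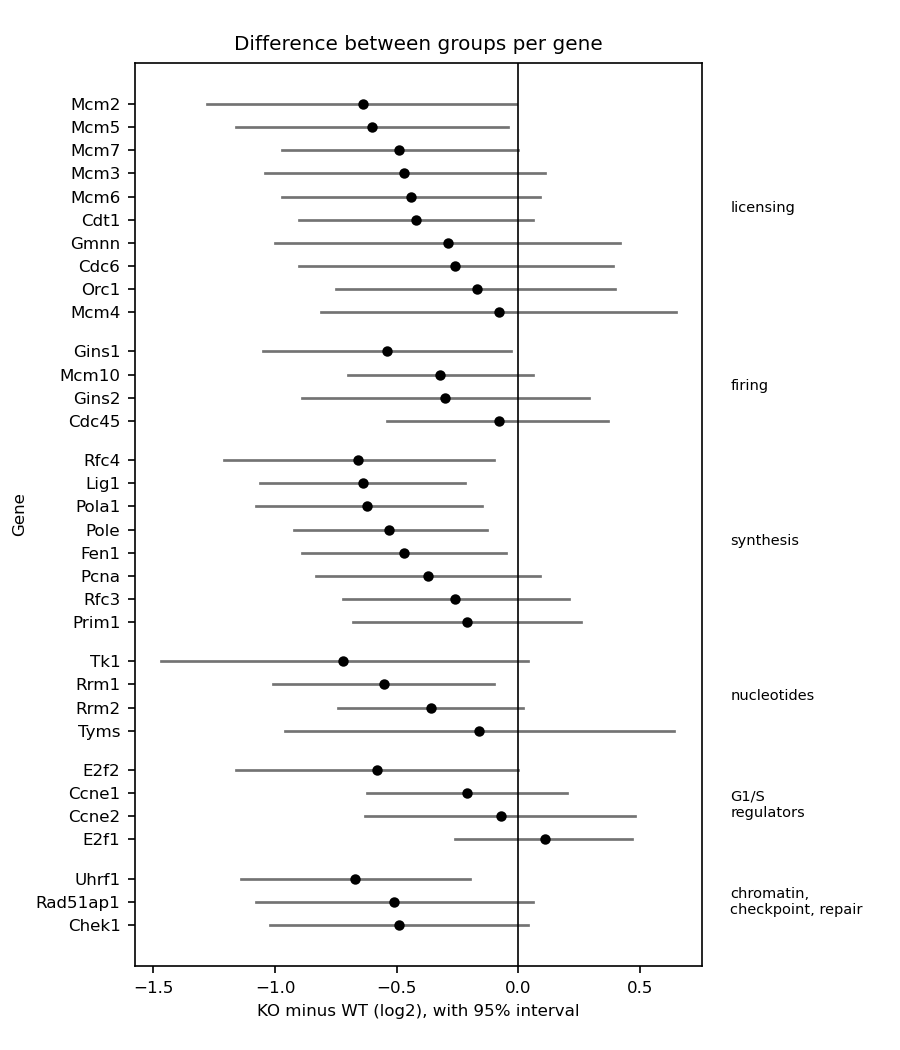
KO minus WT difference (x axis, log2) of each of the 33 genes (points, grouped by role) with its 95% interval from limma (lines, not adjusted for the number of genes). The points of 32 genes lie left of 0, and the intervals of 12 exclude it.

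Several probe sets of a gene allowed a check within the arrays. The 33 genes have 78 probe sets, and 26 of the genes have more than 1. Of the 45 probe sets that did not stand for their gene, 37 differed in the same direction as the one that did and 8 in the opposite direction, and these 8 had differences between -0.28 and 0.22. None of the 78 was called by limma adjusted over 34945 probe sets. Probe sets of a gene share the same samples, so their number adds nothing to the 5 arrays a group. With the mean of all probe sets of a gene in place of the brightest, 33 of 33 differences were below 0, E2f1 included at -0.15, 0 were called and the median was -0.37.

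The rest of the replication machinery was a list of 48 further genes, of which 46 were measured. It had 0 called genes, 13 with a negative and 1 with a positive difference at an unadjusted limma p under 0.05, 39 of 46 differences below 0 and a median of -0.30. The smallest p belonged to Dbf4, encoding the activator of the Cdc7 kinase that fires origins, at -0.70 (SE 0.20, limma adjusted p = 0.0976), Dut, encoding the enzyme that keeps uracil out of DNA, at -0.97 (SE 0.29, limma adjusted p = 0.119), and Rfc2, a further clamp loader subunit gene, at -0.49 (SE 0.15, limma adjusted p = 0.129). Dut read 9.12, 9.73, 8.92, 9.31 and 9.59 in WT and 9.32, 7.98, 7.93, 7.79 and 8.81 in KO. KO 9, KO 10 and KO 21 lay well below all WT arrays, KO 23 lay just below WT 3, and KO 8 lay inside the WT range. The 1 with a positive difference was Pold4, a small subunit gene of polymerase delta, at 0.32 (SE 0.13, limma adjusted p = 0.327), which was picked out after its value was seen.

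Around the E2F factors, 27 further genes of G1/S control were measured and 0 were called, with 8 negative and 0 positive differences at an unadjusted p under 0.05 and a median of -0.26. Ccnd1, encoding cyclin D1, the cyclin through which growth signals act on the retinoblastoma protein, read 9.82, 10.53, 9.04, 9.46 and 10.12 in WT and 9.59, 8.65, 8.65, 8.05 and 8.95 in KO. Its difference of -1.01 (SE 0.31, limma adjusted p = 0.128) was the most negative of this list, and KO 8 alone of the KO arrays exceeded the lowest WT arrays. Tfdp2, encoding a dimerisation partner of E2F factors, differed by -0.75 (SE 0.22, limma adjusted p = 0.126) and E2f6, a repressing E2F gene, by -0.53 (SE 0.18, limma adjusted p = 0.19). In Cdk4, the kinase partner of cyclin D1, all KO arrays (8.49 to 9.55) lay below all WT arrays (9.60 to 10.07), with a difference of -0.59 (SE 0.21, limma adjusted p = 0.204). It was named after its values were seen. Of the 7 genes of CDK inhibitors, which hold these kinases back, 0 were called and all 7 differences were above 0, with a median of 0.07. The smallest p were those of Cdkn2c at 0.42 (SE 0.19, limma adjusted p = 0.381), Cdkn1a at 0.46 (SE 0.21, limma adjusted p = 0.384) and Cdkn1c at 0.24 (SE 0.24, limma adjusted p = 0.799).

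Genes of mitosis and cytokinesis, which act after replication in the same cycle, were read beside these as the nearest comparison. Of 28 measured out of 29 listed, 2 fell, Prc1 by 0.94 and Mki67 by 0.56 (limma adjusted p = 0.0296 and 0.0401), and all 28 differences were below 0 with a median of -0.67, against -0.44 for the replication and G1/S genes. Of all genes, 0.346% were called lower. In 4 of the 28 the groups did not overlap, with KO below WT, as in 1.02% of all genes. Kif20a, at -0.94 (SE 0.23, limma adjusted p = 0.0538), did not pass. The call of both genes depended on single arrays: without WT 1, WT 2, WT 4, WT 5, KO 9 or KO 10 none of the 28 was called, while 1 was without KO 21, 4 without WT 3, 5 without KO 23 and 6 without KO 8. Calls over all genes varied as well, from 0.0715% called lower without KO 9 to 0.588% without KO 23. Over the 28 genes the mean level relative to the 10-array mean was 0.05 to 0.73 in WT, 0.17 on KO 8, 0.14 on KO 23 and -0.72 to -0.63 on KO 9, KO 10 and KO 21, so the KO arrays stood in the same division as for replication genes. Whether the lists differ from each other was not tested.

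**Figure D5:**
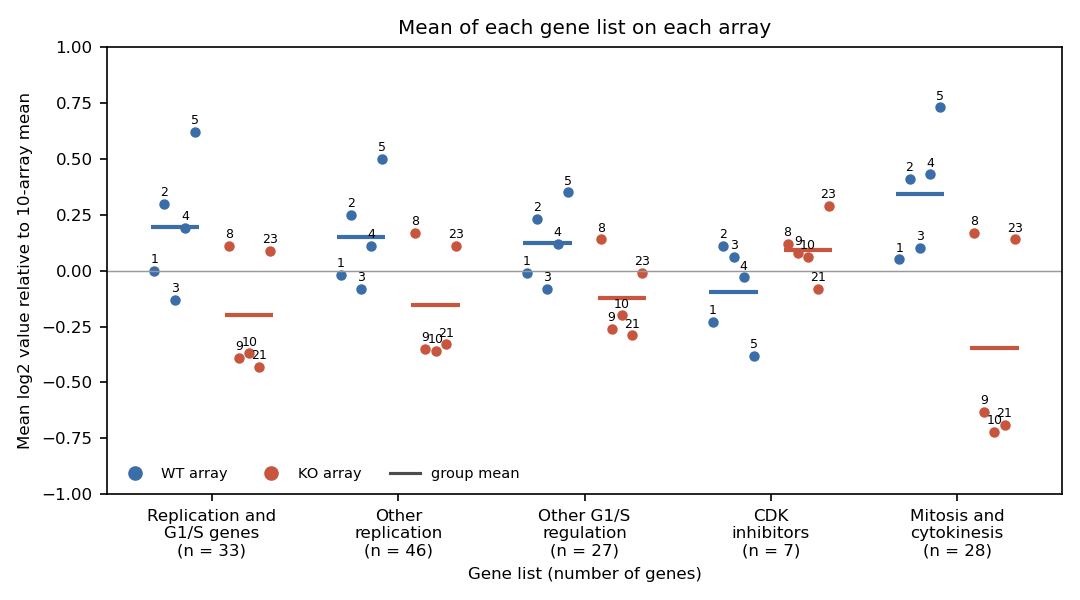
Mean log2 value of each gene list relative to the 10-array mean of its genes (y axis) on each array (points, numbered as in the labels; bars, group means) for 5 lists (x axis). For the replication and G1/S genes, KO 9, KO 10 and KO 21 lie between -0.43 and -0.37 and KO 8 and KO 23 at 0.11 and 0.09, within the WT points.

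Markers of other cell states and cell types also differed between the arrays. The 8 markers of differentiated keratinocytes were all called higher in KO, beside 2.3% of all genes. Their summed level was 11.59 to 12.66 in WT and 13.60 to 14.13 in KO. Within KO it was 14.13 on KO 9, 13.87 on KO 10 and 14.02 on KO 21, the arrays with the lowest replication genes, and 13.62 on KO 8 and 13.60 on KO 23. In such bulk samples, fewer cycling cells and less transcript per cell cannot be told apart. The summed level of 7 fibroblast markers was 13.69 on WT 3, 13.47 on WT 4 and 12.15 on KO 23 and 9.57 to 11.52 on the others, with 1 of the 7, Lum, at background and 0 called. That of 7 melanocyte markers was highest on WT 5 (13.11) and KO 23 (13.06) and lowest on WT 1 (9.84), with 0 at background, ranging from 9.84 to 13.11 in WT and from 11.34 to 13.06 in KO. The 7 myeloid and Langerhans markers, of which Cd207 and Ptprc read at background, were also highest on WT 5 (10.93) and KO 23 (10.83), with ranges of 9.10 to 10.93 and 8.59 to 10.83. The brightest of each list were Krt1 (10.06 ± 0.90 in WT and 11.79 ± 0.28 in KO, SD, n = 5 each), Col1a1 (10.07 ± 2.09 and 9.79 ± 1.18), Tyrp1 (9.53 ± 1.65 and 10.43 ± 0.78) and Lyz2 (9.21 ± 0.82 and 8.63 ± 1.14). Of 4 T cell markers 2 were at background, the brightest being Cd3d (4.05 ± 0.32 and 4.20 ± 0.07), and the summed level was 5.09 to 5.82 in WT and 5.42 to 6.00 in KO. Of 5 endothelial markers 3 were at background, the brightest being Pecam1 (4.98 ± 0.17 and 4.68 ± 0.35), and the summed level was 6.22 to 6.51 and 5.87 to 6.49. No marker of these 5 other populations was called. Apart from the fibroblast covariate above, the part of these populations in the differences was not tested.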

How the data were processed

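Biotin-labelled cRNA from 6 µg of total RNA per sample was hybridised, per the labels' protocols. The deposited values are log2 expression values made with RMA, which equalises the arrays, per the submitters' processing notes. The version was not given in the sources used here. They ran from 1.13 to 14.92, with array medians of 5.02 to 5.17, and were used with no further normalisation, pseudocount or filter. Of 45101 probe sets, 64 are controls, 34945 have 1 gene, 932 several and 9160 none. Of the 34945, identifiers of 34741 were found in the RefSeq gene table (GRCm38.p6), whose symbols were used. The others kept the symbol of the array annotation, and all 34945 together gave 18193 genes.

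KO minus WT was fitted in R 4.3.3 by limma 3.58.1, using lmFit and eBayes for two-sided tests, adjusted by Benjamini-Hochberg over all genes, and tested on simulated data. SE is limma's moderated standard error. No label number occurs in both groups, so samples were not paired. Alternatives were another summary of probe sets, a filter, centring, other variance models and weights, covariates and leaving out arrays. The 33 genes and all further lists were chosen with earlier results of these data known. The rule for named genes took all 33, then of each further list those called and the 3 with the smallest p, and of each marker list the brightest. Exceptions are Pold4 and Cdk4, named outside it, and 1 of the 33, whose own result is not reported here. The number of arrays, 5 a group, limits the precision.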

Additional observations from a re-analysis of the deposited data

Results flagged for a closer look

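Among 66 sets of 5 arrays (33 genes in 2 groups), 1 held an array far from the others by Dixon's test at the 95% level, where chance gives about 1 in 20. In Uhrf1, KO 8 read 8.26 and the other KO arrays 7.45 to 7.62. Without KO 8 the Uhrf1 difference was -0.82 (limma adjusted p = 0.0631), and with it -0.67 (0.157).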

How the results depend on the processing

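Over 18 alternatives, 566 of 592 values of the 33 genes kept their direction and their side of the threshold, 9 passed it and 17, in 7 genes, changed sign. With the mean of all probe sets of a gene, E2f1 was -0.15, 2 of the 33 did not overlap between groups, both with KO below WT as in 0.967% of all genes, and 5 mitosis genes were called, against 2. Of all genes, 0.346% were called lower both there and in the main fit. With array weights, 7 of the 33 were called lower, beside 3.08% of all genes. In either direction, 9 other replication and G1/S genes and 22 mitosis genes were called. Of all 18193 genes, 561 were called lower there and 877 higher. Cdc45 was 0.09 in that setting. Without WT 1, WT 2 and KO 8, 5 of the 33 did not overlap, all with KO below WT. The same held for 4.73% of all genes with these 3 against 4 arrays. Cdc45 was 0.13 there. In either direction, 1 other replication or G1/S gene and 1 mitosis gene were called in this setting. Of all genes, 43 (0.236%) were called lower and 370 higher. With the fibroblast covariate, added after seeing the data, 1 of the 33 was called lower, beside 0.594% of all genes. In either direction, 3 other replication and G1/S genes were called, with 108 of all genes called lower and 469 higher. Mitosis genes called were 4 among genes with a mean of at least 5 (which keeps 31 of the 33 genes), 4 with a trended and robust variance and 1 with the Y-linked level as covariate. In that order, 0.698%, 0.357% and 0.291% of all genes tested were called lower.

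Leaving out each array in turn gave 0 to 1 of the 33 called lower and 0 called higher, beside 0.0715% to 0.588% of all genes called lower. It also gave 1 to 3 of the 33 that did not overlap (all with KO below WT, as in 1.18% to 2.52% of all genes). Median differences were -0.53 to -0.33. In either direction, 0 to 3 other replication and G1/S genes and 0 to 6 mitosis genes were called. Genes called higher in KO numbered 264 to 419 of all genes. Over the same fits, 6 of the 33 changed sign. Cdc45 ran from -0.18 to 0.06 and was above 0 without WT 1, KO 8 or KO 23. Ccne2 ran from -0.27 to 0.07 and was above 0 without WT 2, WT 5, KO 9 or KO 21. Mcm4 ran from -0.43 to 0.13 and was above 0 without WT 3, WT 5 or KO 21. Tyms ran from -0.38 to 0.10 (above 0 without WT 5 or KO 8), Cdc6 from -0.41 to 0.03 (without WT 5) and Orc1 from -0.34 to 0.06 (without KO 8). The cause was not tested. No paired analysis was possible because no number in the labels occurs in both groups. The 95% intervals of 14 of the 33 genes reach -1 or below, so that 5 arrays a group leave a 2-fold difference within their error, and in 19 they do not.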
